A study of Homo sapiens with 46 samples.

Results

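RNA-seq counts were compared between DLD-1 cells whose own Lamin A/C carries a degron that responds to auxin, called LAC here, and the untagged parental DLD-1 line, both at 0 h of auxin. The comparison takes the libraries the labels place in these groups, 4 per line and 8 of the 46 in the series. DLD-1 is an established human colorectal adenocarcinoma line. The series also held lines with the degron on Lamin B1 (LB1) or Lamin B2 (LB2), and each line was sampled at 0, 16 and 96 h of 1 mM auxin. Every group shared the DLD-1 background and the culture medium, and the 8 libraries described here had the degron tag, on the N-terminal end of Lamin A/C, as their labelled difference. The labels do not say whether LAC is a single clone, whether cells at 0 h received DMSO, in which the auxin was dissolved, or what else the derived line carries. Lamin protein was not analysed here.

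Lamins are intermediate filament proteins that form a meshwork under the inner nuclear membrane. LMNA encodes the A-type lamins A and C by alternative splicing, while LMNB1 and LMNB2 encode the B-type lamins. The meshwork anchors inner membrane proteins, nuclear pores and the heterochromatin of the nuclear periphery, and it is coupled to the cytoskeleton through SUN and nesprin proteins. The auxin degron recruits a ubiquitin ligase to the tagged protein once auxin is added, so the 0 h comparison concerns the tagged line in its starting state.

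Each library came from 1 well of cultured cells, so the p-values measure the spread between wells, which may be technical. Parental libraries held from 3770140 to 11696867 counts and LAC libraries from 3318819 (replicate 1) to 29739484 (replicate 2). The epithelial markers EPCAM, CDH1, KRT8, KRT18 and KRT19 were abundant in the 8 libraries, the lowest being 404 CPM for EPCAM (CPM being a gene's counts relative to the library total). Intestinal markers ranged widely. CDX2, CDH17 and ELF3 had 6339, 1325 and 1601 counts over the 4 LAC libraries and 2656, 1925 and 1095 over the 4 parental ones. VIL1 had 46 counts in LAC and 44 in the parental line, and CDX1 0 and 1. GPA33, LGALS4 and CEACAM5 had 8, 9 and 6 counts over the 4 LAC libraries and 22, 17 and 11 over the 4 parental ones. Markers of endothelium, leukocytes and fibroblasts were not all absent, and the neuronal list is described further below. VWF and CLDN5 of the endothelial list had 260 and 179 counts over the parental libraries and 310 and 214 over LAC, CSF1R and CD14 of leukocytes 84 and 41 against 79 and 126, and COL1A1 of fibroblasts 59 against 97. The highest level among these was 16.3 CPM, for VWF. PDGFRB and PECAM1 had 19 and 12 parental counts and 41 and 18 in LAC. Each other member of the endothelial, leukocyte and fibroblast lists had at most 7 in a line, with COL1A2, DCN, CD3D, MS4A1, KDR and TIE1 at 0 in the 8 libraries. Libraries also differed in how gene level followed GC content (the share of G and C bases in a gene's exons). Across 8533 genes, Spearman's rho between GC content and a library's deviation from the mean of the libraries was 0.73, -0.157, 0.59 and 0.443 in LAC replicates 1 to 4 and 0.107, -0.268, 0.335 and 0.0873 in the parental ones.

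LMNA, the tagged gene (chr1:156082573-156140081, plus strand, GRCh38), was lower in 3 LAC libraries and at the parental level in the other. It stood at 794, 615, 862 and 680 CPM in parental replicates 1 to 4, scaled by TMM factors as are all levels from here on, and at 773, 263, 373 and 332 CPM in LAC replicates 1 to 4. The groups overlapped through LAC replicate 1, the least deep of the 8 libraries and the one with the steepest GC trend, and the part of either in this value was not tested. The log2 difference, LAC minus parental, was -0.77 ± 0.26 (standard error, n = 4 and 4) with an edgeR adjusted p of 0.0346. With each library's trend over GC content and gene length taken out (called the trend removed below) it was -1.21 (edgeR adjusted p 2.41e-10), and without LAC replicate 1 it was -1.17. The call was lost in 6 of the 8 fits that left out 1 library, which were those without parental replicate 1, 3 or 4 and those without LAC replicate 2, 3 or 4, with the smallest difference, -0.56, without LAC replicate 2. In libraries that share none with these, LMNA was also lower in LAC, with differences of -0.92 (adjusted p 0.0303) at 16 h and -1.08 (adjusted p 0.0168) at 96 h of auxin in the edgeR fit.

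Both B-type lamin genes rose in LAC. LMNB1 (chr5:126776623-126837020, plus strand) stood at 156, 149, 149 and 135 CPM in the 4 parental libraries and at 295, 206, 201 and 205 CPM in the 4 LAC libraries. The groups did not overlap, and LAC replicate 1 was the highest library. The difference was 0.62 ± 0.15 (edgeR adjusted p 0.0025), or 0.47 with the trend removed. LMNB2 (chr19:2427638-2456959, minus strand) stood at 292, 297, 307 and 235 CPM in the 4 parental libraries and at 634, 392, 511 and 454 CPM in the 4 LAC libraries, again without overlap. Its difference was 0.81 ± 0.21 (edgeR adjusted p 0.00481), against 0.40 with the trend removed (adjusted p 0.00813 in edgeR). Neither was called between the lines at 16 h, at 0.25 and 0.091 (edgeR adjusted p 0.489 and 0.926), or at 96 h, at 0.012 and -0.28 (edgeR adjusted p 0.991 and 0.678). The change of the LMNB2 difference from 0 to 96 h was itself called, at -1.09 (edgeR adjusted p 0.0177); taking out the trend made it -0.48 (edgeR adjusted p 0.0491).

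**Figure D1:**
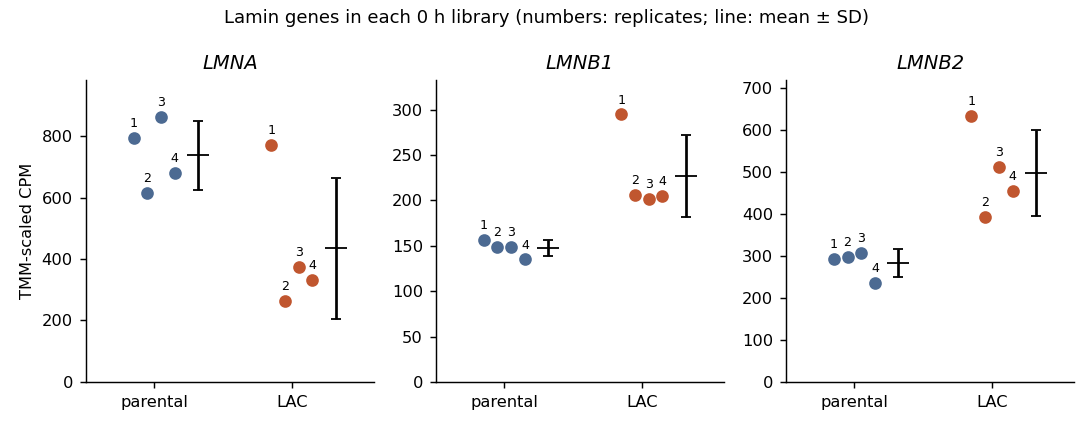
TMM-scaled CPM of LMNA, LMNB1 and LMNB2 in each library of the parental and LAC lines at 0 h (numbered by replicate), with the mean ± SD beside them (n = 4). LMNA in LAC replicate 1 lies at 773 CPM beside the parental libraries, while the LAC libraries of LMNB1 and LMNB2 lie above the parental ones.

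Of 21484 genes tested, 3393 (15.8%) were called at an edgeR adjusted p under 0.05, 1871 (8.71%) of them higher in LAC and 1522 (7.08%) lower. The calls of at least 2-fold leaned the other way, 917 in all (4.27%), with 227 higher (1.06%) and 690 lower (3.21%). The 4 LAC and 4 parental libraries did not overlap at 3587 genes (16.7%), 1808 higher (8.42%) and 1779 lower (8.28%). The balance of directions depended on scaling. The higher share of the calls was 55.1% with TMM, 45.4% with RLE scaling, 45.5% with DESeq2, 23.8% with library size alone and 39.9% with the trend removed, where 4250 genes (19.8%) were called, 1695 higher (7.89%) and 2555 lower (11.9%). The median difference over all genes tested was -0.057 with TMM, -0.12 with RLE, -0.24 with library size alone and -0.14 with the trend removed, and small differences below are to be read against it. List counts below are likewise to be read against the 8.71% higher and 7.08% lower over all genes with TMM. Calls with and without the trend in 1 direction numbered 2640 (12.3%), 1207 higher (5.62%) and 1433 lower (6.67%).

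The size of the difference followed GC content. Over 10 equal bins of 8533 well-expressed genes, the median log2 difference at 0 h went from -0.151 at 32.0 to 39.4% GC up to 0.477 at 61.0 to 72.0% GC. At 16 h the same bins gave 0.114 and -0.00198, and at 96 h the order was turned, from 0.0847 down to -0.235. Across these genes rho with GC content was 0.491 at 0 h, -0.162 at 16 h and -0.482 at 96 h, a description over genes that share their libraries. A called 0 h difference that moved by more than 1.5 times with the trend removed, or lost its call, is given with both values.

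**Figure D2:**
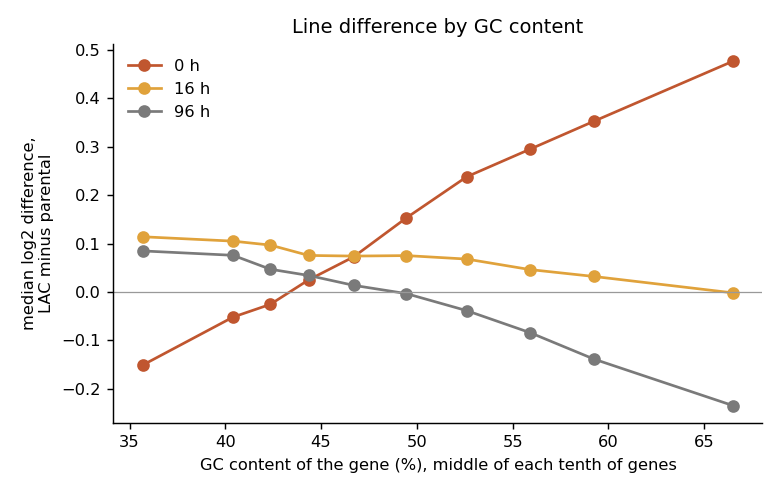
Median log2 difference, LAC minus parental, over 10 bins of genes ordered by GC content (percent), at 0, 16 and 96 h. The 0 h line climbs from -0.151 to 0.477 and the 96 h line falls from 0.0847 to -0.235.

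A small set of genes was called between the lines in 1 direction at every time. The 16 and 96 h libraries are other wells than the 0 h ones, with auxin on both sides and Lamin A/C degradation on 1. Between the lines 722 genes (3.36%) were called at 16 h, 266 higher (1.24%) and 456 lower (2.12%), and 292 (1.36%) at 96 h, 105 higher (0.489%) and 187 lower (0.87%). Of the 0 h calls, 408 were called the same way at 16 h, which is 12% of the 0 h calls and 56.5% of the 16 h calls, and 7 the opposite way. At 96 h 142 were called the same way (4.19% of the 0 h calls and 48.6% of the 96 h calls) and 12 the opposite way. Called or not, 2900 of the 0 h calls (85.5%) had the same sign at 16 h and 1653 (48.7%) at 96 h. With the trend removed these shares were 87.8% and 61.3%. In all, 115 genes (0.535%) were called in 1 direction at all 3 times, 20 higher (0.0931%) and 95 lower (0.442%). The fit with the trend removed gave 238 such genes, 58 higher and 180 lower.

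Zinc finger genes of the KRAB type, a class of transcriptional repressors, were among the lower ones, and some of them had no counts at all in LAC. ZNF430 (chr19:21020634-21060050, plus strand) had 144 counts over the 4 parental libraries and 0 over the 4 LAC libraries. Its level was 5.24, 5.12, 3.77 and 4.35 CPM in the parental libraries, so LAC was at least 76.6-fold lower, taking 3 counts over the LAC group as the floor. It stayed at 0 counts in LAC at 16 h against 197 in the parental line, and had 3 against 122 at 96 h. LB1 and LB2 at 0 h held 3 and 11 counts of it. ZNF141, on chromosome 4, had 45 parental counts and 0 in LAC, at least 25.4-fold lower, and 0 counts in both LB1 and LB2 at 0 h. ZNF605 was at least 15.7-fold lower on the same floor, with 28 counts against 0, and had 5 against 70 at 16 h, but 13 against 28 at 96 h (edgeR adjusted p 0.352). ZNF432 (chr19:52031378-52095738, minus strand) stood at 5.00, 3.71, 3.41 and 3.38 CPM in the 4 parental libraries and at 0, 0.370, 0.159 and 0.151 CPM in the 4 LAC libraries, a difference of -3.95 ± 0.48 (edgeR adjusted p 6.05e-08). ZNF841, which overlaps it on the same strand so that reads may be split between them, stood at 5.61, 7.51, 5.56 and 4.59 CPM in the 4 parental libraries and at 0.647, 0.148, 0.477 and 0.980 CPM in the 4 LAC libraries, a difference of -3.56 ± 0.47 (edgeR adjusted p 3.92e-07). The libraries of the lines did not overlap for either gene. Over the 184 tested zinc finger genes of chromosome 19, 17 were called higher and 11 lower, with a median of 0.089. These shares, 9.24% and 5.98%, were near the 8.71% and 7.08% over all genes, so the class as a whole did not lean lower.

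The stretches just upstream of 3 of these genes are shown because the genes were silent or nearly so in LAC at every time. ZNF141 and ZNF605 were chosen after their values were seen. They come from the RefSeq promoter table (GRCh38.p14) at chr19:21020407-21020619 on the plus strand, chr19:52095766-52096015 on the minus strand and chr4:337564-337813 on the plus strand, end before the first annotated exon, and have each CG dinucleotide, the site of DNA methylation, in capitals.
ZNF430: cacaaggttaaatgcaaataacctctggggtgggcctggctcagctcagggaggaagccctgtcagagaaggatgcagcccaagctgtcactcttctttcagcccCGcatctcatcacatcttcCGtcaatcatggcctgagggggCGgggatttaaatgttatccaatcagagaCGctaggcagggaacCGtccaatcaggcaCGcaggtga
ZNF841: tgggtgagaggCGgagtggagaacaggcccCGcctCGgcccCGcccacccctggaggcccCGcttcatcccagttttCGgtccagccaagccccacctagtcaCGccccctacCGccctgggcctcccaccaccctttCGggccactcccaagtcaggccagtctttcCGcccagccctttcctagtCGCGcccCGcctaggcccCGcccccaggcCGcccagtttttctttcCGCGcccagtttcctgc
ZNF141: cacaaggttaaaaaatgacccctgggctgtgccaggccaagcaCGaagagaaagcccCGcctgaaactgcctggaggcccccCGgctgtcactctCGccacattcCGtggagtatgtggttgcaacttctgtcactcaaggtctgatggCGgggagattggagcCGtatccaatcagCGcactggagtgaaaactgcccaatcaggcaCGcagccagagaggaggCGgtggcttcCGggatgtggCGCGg
The 250 bases before the start held 10, 17 and 13 CG dinucleotides in these genes. The median was 10 (quartiles 3 and 23) over the 27305 genes of the table, 20 over the 12401 tested genes found in it, 10 over 71 genes lower at all 3 times and 26.5 over 14 higher at all 3 times. Methylation was not measured, and the letters are a description of the sequence.

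Genes next to the silent ones were not all lower. ZNF714, 22.1 kb from ZNF430, differed by -0.27 (edgeR adjusted p 0.357), and ZNF431, 82.0 kb away, by 0.042 (edgeR adjusted p 0.904). ZNF616, 17.4 kb from the ZNF432 and ZNF841 pair, differed by -0.095 (edgeR adjusted p 0.827). These neighbours were chosen after the values were seen. The long noncoding RNA LINC01224 had 45 parental counts and 0 in LAC, at least 25.6-fold lower, and its neighbour ZNF91, 3.63 kb away, fell by 0.49 (edgeR adjusted p 0.00573). At all 3 times LINC01224 was called lower, with 3 counts in LAC at 16 h and 2 at 96 h.

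Other genes held lower were an enzyme of glucuronidation and a phospholipase. UGT1A6, which conjugates phenols and shares exons with the other UGT1A genes so that its reads may be theirs, stood at 2.44, 1.32, 2.33 and 2.90 CPM in the 4 parental libraries and at 0.324, 0.111, 0.159 and 0 CPM in the 4 LAC libraries. The difference was -4.29 ± 0.71 at 0 h (edgeR adjusted p 3.12e-05), -5.92 at 16 h and -3.96 at 96 h. PLA2G4F, a cytosolic phospholipase A2, stood at 3.05, 2.81, 3.95 and 1.45 CPM in the 4 parental libraries and at 0, 0.111, 0 and 0.377 CPM in the 4 LAC libraries, with differences of -4.07 ± 0.58 (edgeR adjusted p 2.19e-06), -3.79 and -2.89. The lines did not overlap at 0 h for either gene.

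Genes held higher were fewer. FHL1 (chrX:136146702-136211359, plus strand), a LIM-domain protein of muscle and cytoskeleton, stood at 0.609, 1.24, 0.359 and 0.967 CPM in the 4 parental libraries and at 14.9, 22.9, 17.8 and 21.4 CPM in the 4 LAC libraries. The groups were far apart, and the difference was 4.52 ± 0.38 at 0 h (edgeR adjusted p 8.88e-11), 4.93 at 16 h and 4.90 at 96 h. TRPV2 (chr17:16415571-16437003, plus strand), a cation channel, stood at 0, 0.330, 1.26 and 0.967 CPM in the 4 parental libraries and at 3.88, 3.62, 4.13 and 4.37 CPM in the 4 LAC libraries, a difference of 2.87 ± 0.54 (edgeR adjusted p 0.000233) with 3.11 and 3.29 later. TMEM156, a transmembrane protein, rose by 2.15 ± 0.48 (edgeR adjusted p 0.00148) from 0, 1.32, 0 and 1.69 to 3.24, 3.88, 3.34 and 2.79 CPM, and its call was lost in a fit to the 8 libraries alone, at 2.10 (edgeR adjusted p 0.0831). ZNF711, a zinc finger gene of the X chromosome, rose from 2.32, 2.81, 2.33 and 4.35 to 6.47, 12.0, 9.37 and 8.82 CPM, by 1.73 ± 0.25 (edgeR adjusted p 2.65e-06). HAGLR, a noncoding RNA antisense to HOXD1 and HOXD3 whose reads may not be told from theirs without the strand setting, rose by 2.00 ± 0.41 (edgeR adjusted p 0.000578).

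**Figure D3:**
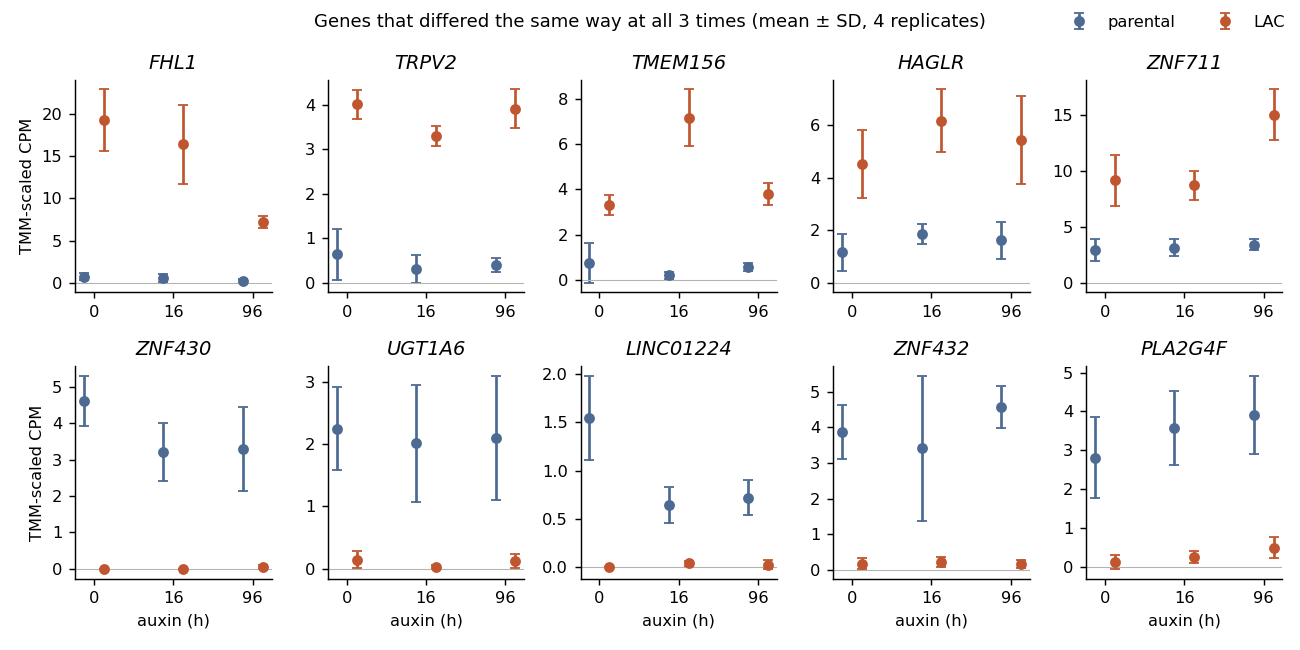
TMM-scaled CPM (mean ± SD, n = 4) of 5 genes higher and 5 genes lower in LAC than in the parental line at 0, 16 and 96 h of auxin, the times being categories on the axis. ZNF430 lies at 0 in LAC at 0 h against 4.62 ± 0.691 CPM in the parental line, and FHL1 lies above the parental line at each time.

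The same genes can be set beside the other tagged lines. LAC at 0 h against the mean of LB1 and LB2 at 0 h gave 4307 calls (20%), 2563 higher (11.9%) and 1744 lower (8.12%). That comparison uses the LAC libraries of the parental comparison again, so its values are given side by side with no count of agreement. It is also set against the mean of 2 unlike lines, so levels are given for each line (mean ± SD, n = 3 for LB1 and 4 for LB2). FHL1 was at 0.0307 ± 0.0531 CPM in LB1 and at 0 in the LB2 libraries, and TRPV2 at 0.220 ± 0.231 and 0.0694 ± 0.0887 CPM, both below LAC. ZNF711 was at 15.1 ± 1.08 CPM in LB1, above its 9.17 ± 2.27 CPM in LAC, and at 0.247 ± 0.303 CPM in LB2. Of the silent genes, ZNF430 and LINC01224 were low in the other tagged lines too, ZNF430 at 0.0496 ± 0.0859 and 0.462 ± 0.489 CPM in LB1 and LB2 and LINC01224 at 0.158 ± 0.142 and 0.10 ± 0.146 CPM, against 4.62 ± 0.691 and 1.55 ± 0.439 CPM in the parental line. REG4 and ZNF605 were lower there too, REG4 at means of 0.113 and 0.023 CPM against 0.529 and ZNF605 at 0 and 0.316 CPM against 0.947. Some others at 0 counts in LAC were not low in LB1. KRT17 was at 0.703 ± 0.624 and 0.916 ± 0.684 CPM in LB1 and LB2 against a mean of 0.319 in the parental line. The pseudogene UGT1A2P was at a mean of 0.65 CPM in LB1 and 0.218 CPM in LB2. Its parental mean was 0.525, from libraries at 0.487, 0, 1.61 and 0 CPM. ZNF432 stood between, at 2.25 ± 0.596 and 2.27 ± 1.11 CPM. Being called against LB1 and LB2 was part of the rule that chose the 10 genes plotted by time. LMNA differed by -0.79 (adjusted p 0.0127) from LB1 and LB2 in the edgeR fit, and by -1.25 with the trend removed.

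The largest rises at 0 h included genes that were not called between the lines at 96 h. GALR2, a galanin receptor that overlaps ZACN, rose from 0.609, 0.248, 0.179 and 0.242 to 4.21, 2.22, 3.18 and 3.47 CPM, by 3.21 ± 0.58 (edgeR adjusted p 0.000109), against 0.83 (adjusted p 0.457) at 16 h and -0.72 (adjusted p 0.623) at 96 h. HES7, a transcription factor of the NOTCH pathway, stood at 4.14, 3.14, 6.46 and 4.59 CPM in the 4 parental libraries and at 42.1, 7.47, 11.0 and 11.9 CPM in the 4 LAC libraries. LAC replicate 1 was far above the other LAC libraries, and the difference of 1.91 ± 0.48 (edgeR adjusted p 0.00396) was 1.20 without it and 1.25 with the trend removed. NAT8L, which makes N-acetylaspartate, rose by 1.73 ± 0.34 (edgeR adjusted p 0.000363), and P2RY11, a purinergic receptor sharing exons with PPAN-P2RY11, by 1.69 ± 0.34 (edgeR adjusted p 0.000481). At 16 h HES7, NAT8L and P2RY11 were 0.94, 0.27 and 0.76 (edgeR adjusted p 0.386, 0.806 and 0.218). P2RY11 was called there with the trend removed, at 0.76 (edgeR adjusted p 0.0354). At 96 h HES7, NAT8L and P2RY11 were 0.16, -0.031 and -0.095 (edgeR adjusted p 0.934, 0.988 and 0.943). CA12, a carbonic anhydrase, rose by 1.98 ± 0.48 (edgeR adjusted p 0.00319), was 0.47 (adjusted p 0.66) at 16 h and was called higher again at 96 h, at 1.41 (adjusted p 0.0276) in the edgeR fit. It stood at 0.033 against LB1 and LB2 (edgeR adjusted p 0.97).

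Some rises lost their call without a single library. PSAPL1, a prosaposin-like gene, rose by 1.90 ± 0.55 (edgeR adjusted p 0.0126), with 1.57 without parental replicate 3 (edgeR adjusted p 0.0503) and 1.86 in a fit to the 8 libraries alone (edgeR adjusted p 0.0544). LOXL1, a lysyl oxidase-like enzyme, rose by 1.87 ± 0.54 (edgeR adjusted p 0.0131), with 1.43 without parental replicate 1 (edgeR adjusted p 0.0577) and 1.83 in the 8 libraries alone (edgeR adjusted p 0.117). ANKRD33B, an ankyrin repeat gene, rose by 1.64 ± 0.51 (edgeR adjusted p 0.0207), with 1.57 and 1.45 without parental replicate 1 or 3 (edgeR adjusted p 0.0536 and 0.0661) and 1.54 with libraries under 5000000 counts left out (edgeR adjusted p 0.0525). PSAPL1 and ANKRD33B were called higher at 16 h, at 2.43 and 1.55 (edgeR adjusted p 0.0037 and 0.0408). LOXL1 was 0.68 there (edgeR adjusted p 0.628). At 96 h PSAPL1, ANKRD33B and LOXL1 were 1.41, 0.28 and 0.86 (edgeR adjusted p 0.131, 0.88 and 0.526). PSAPL1 was called at 96 h with the trend removed, at 1.64 (edgeR adjusted p 0.0349). Among other gene types, the pseudogene RPL22P1, inside MECOM, rose by 2.43 ± 0.52 (1.58 with limma voom), and MBTPS1-DT, a divergent transcript, by 2.21 ± 0.53 (edgeR adjusted p 0.000981 and 0.0028).

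Large falls at 0 h reached metabolic and secreted proteins. QPRT, an enzyme of NAD synthesis that overlaps SPN, stood at 4.26, 5.94, 4.84 and 14.3 CPM in the 4 parental libraries and at 0, 0.148, 0.477 and 0.377 CPM in the 4 LAC libraries, a difference of -4.76 ± 0.49 (edgeR adjusted p 9.74e-10). LCN2, the iron-siderophore carrier lipocalin, stood at 2.80, 3.63, 5.02 and 4.59 CPM in the 4 parental libraries and at 0, 0.0739, 0 and 0.377 CPM in the 4 LAC libraries, a difference of -4.69 ± 0.51 (edgeR adjusted p 4.04e-09). For both genes every LAC library was below every parental one. FBLIM1, an adaptor of focal adhesions, fell from 7.43, 9.00, 14.2 and 14.7 to 0.647, 1.11, 0.635 and 0.528 CPM, by 3.76 (edgeR adjusted p 2.2e-10). Against the mean of LB1 and LB2 it stood at -0.61 (edgeR adjusted p 0.453). Those lines were unlike, with LB1 at 0.113 ± 0.125 CPM and LB2 at 9.49 ± 6.62 CPM (mean ± SD). CYP4F3, a cytochrome P450 acting on leukotriene B, and RINL, a RAB exchange factor, fell by 3.41 and 3.34 (edgeR adjusted p 9.98e-07 and 2.51e-05). These 5 genes were also called lower at 16 and 96 h. IGFBP7, a secreted binding protein of insulin-like growth factors, was -3.08 ± 0.59 at 0 h (edgeR adjusted p 0.000225) and -0.59 and -0.38 later (edgeR adjusted p 0.727 and 0.853). Its mean at 0, 16 and 96 h was 4.14, 0.973 and 1.18 CPM in the parental line and 0.400, 0.662 and 0.949 CPM in LAC.

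Among genes of other types, the pseudogene NCAPD2P1, inside NPSR1-AS1, was -2.65 ± 0.52 (edgeR adjusted p 0.000302). EGLN3P1 and RPS20P31 were -2.62 ± 0.73 and -2.52 ± 0.74 (edgeR adjusted p 0.00952 and 0.0143), and parental replicate 4 was the highest library for both, at 4.35 and 4.59 CPM. Without it they were -2.09 and -1.90 (edgeR adjusted p 0.0617 and 0.0992), without LAC replicate 4 RPS20P31 was -2.10 (edgeR adjusted p 0.0654), and with libraries under 5000000 counts left out they were -1.91 and -1.72 (edgeR adjusted p 0.0926 and 0.124). Reads of pseudogenes may be shared with their parent genes. Counts on lincRNA genes made up 0.4 to 0.548% of LAC libraries and 0.558 to 0.679% of parental ones, and those on antisense genes 0.441 to 0.536% and 0.551 to 0.676%. Their median differences were -0.29 over 1247 lincRNA genes and -0.36 over 2023 antisense genes, beside 0.045 over 13734 protein-coding genes. Protein-coding genes spanning 500 kb or more had a median of -0.39, with 2 called higher and 38 lower of 165, and -0.40 with the trend removed. Those counts were 1.21% and 23%, beside 13% and 7.64% of all protein-coding genes tested.

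Many genes of cholesterol and fatty acid synthesis fell. Cells make cholesterol from acetyl-CoA by the mevalonate pathway, whose genes are switched on by the SREBP factors when sterols are low. In this list 0 of 33 tested members were called higher and 16 lower, with a median log2 difference of -0.45, beside -0.057 over all genes. With the trend removed 22 were lower (median -0.55), and under the alternatives run the lower count ran from 14 to 22. INSIG1, which holds SREBP in the endoplasmic reticulum and is itself a target, stood at 141, 139.5, 133 and 148 CPM in the 4 parental libraries and at 71.2, 59.9, 44.8 and 33.7 CPM in the 4 LAC libraries. Every LAC library lay below every parental one, and the difference was -1.44 ± 0.14 (edgeR adjusted p 3.09e-10). SCD, the desaturase that makes oleate, stood at 950.1, 1221, 1096 and 1163 CPM in the 4 parental libraries and at 303, 518, 432 and 338 CPM in the 4 LAC libraries, a difference of -1.48 ± 0.15 (edgeR adjusted p 6.65e-10). HSD17B7, a sterol ketoreductase, stood at 40.7, 38.7, 44.7 and 41.6 CPM in the 4 parental libraries and at 15.9, 21.3, 19.1 and 18.6 CPM in the 4 LAC libraries, a difference of -1.12 ± 0.13 (edgeR adjusted p 4.11e-08).

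The fall covered several steps of the pathway. At its start HMGCS1, the HMG-CoA synthase, was -1.11 (edgeR adjusted p 1.5e-06). The prenyl steps IDI1 and FDPS were -1.10 and -0.57, and FDFT1 and SQLE, which commit to squalene and sterol, -0.87 and -0.57. MSMO1 and SC5D of the later sterol steps were -1.25 and -0.59. On the supply side, the sterol carrier STARD4 was -1.18, the acetyl-CoA synthetase ACSS2 -1.09 and the acetyl-CoA carboxylase ACACA -0.62 (edgeR adjusted p 0.000826). The fatty acid synthase FASN was 0.39, and SREBF1 and SREBF2, which encode the SREBP factors, were -0.11 and -0.15 (edgeR adjusted p 0.274, 0.803 and 0.67). Taking out the trend gave -0.082, -0.58 and -0.45 (edgeR adjusted p 0.538, 5.25e-06 and 0.00662). At 16 h 15 members were lower and 0 higher, with a median of -0.47. At 96 h the median was -0.18, with 0 members higher and 1 lower. The 96 h difference was smaller than the 0 h one for INSIG1, SCD and HSD17B7, with changes of 1.07, 1.50 and 0.88 (edgeR adjusted p 0.00106, 3.65e-05 and 0.00383). These genes were chosen by their 0 h p and the change uses the 0 h libraries again, so some of it can come from that choice.

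Upstream stretches of the 3 genes are shown with CCAAT in capitals on either strand (ATTGG is its reverse complement). CCAAT is the motif bound by NF-Y, a partner of SREBP. The stretches come from the RefSeq promoter table (GRCh38.p14) at chr7:155297628-155297775, chr10:100346983-100347123 and chr1:162790452-162790701, each on the plus strand and ending before the first annotated exon.
INSIG1: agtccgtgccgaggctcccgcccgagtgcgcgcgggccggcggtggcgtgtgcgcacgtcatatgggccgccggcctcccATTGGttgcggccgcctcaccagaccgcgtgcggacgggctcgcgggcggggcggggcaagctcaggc
SCD: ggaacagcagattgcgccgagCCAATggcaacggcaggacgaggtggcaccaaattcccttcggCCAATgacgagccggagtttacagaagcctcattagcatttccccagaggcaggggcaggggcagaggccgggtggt
HSD17B7: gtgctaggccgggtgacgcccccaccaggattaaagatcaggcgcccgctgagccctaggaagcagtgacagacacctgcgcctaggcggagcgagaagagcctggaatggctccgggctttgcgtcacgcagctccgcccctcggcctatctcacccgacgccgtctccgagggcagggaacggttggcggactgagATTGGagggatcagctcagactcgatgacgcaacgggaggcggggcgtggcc
CCAAT on either strand was found in the promoter window of 9 of the 11 lower genes that the table held (81.8%), of 8 of 15 other members (53.3%) and of 9020 of all 27305 genes (33.0%). TCACNCCA, the core of a sterol regulatory element searched on both strands, was found in 1 of 11, 2 of 15 and 866 of 27305 (9.09, 13.3 and 3.17%). The 27305 genes include genes not tested here, and no motif share was taken over the tested genes alone. A match is a description of the letters. FDFT1, SQLE and FASN were among those not matched in the table.

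**Figure D4:**
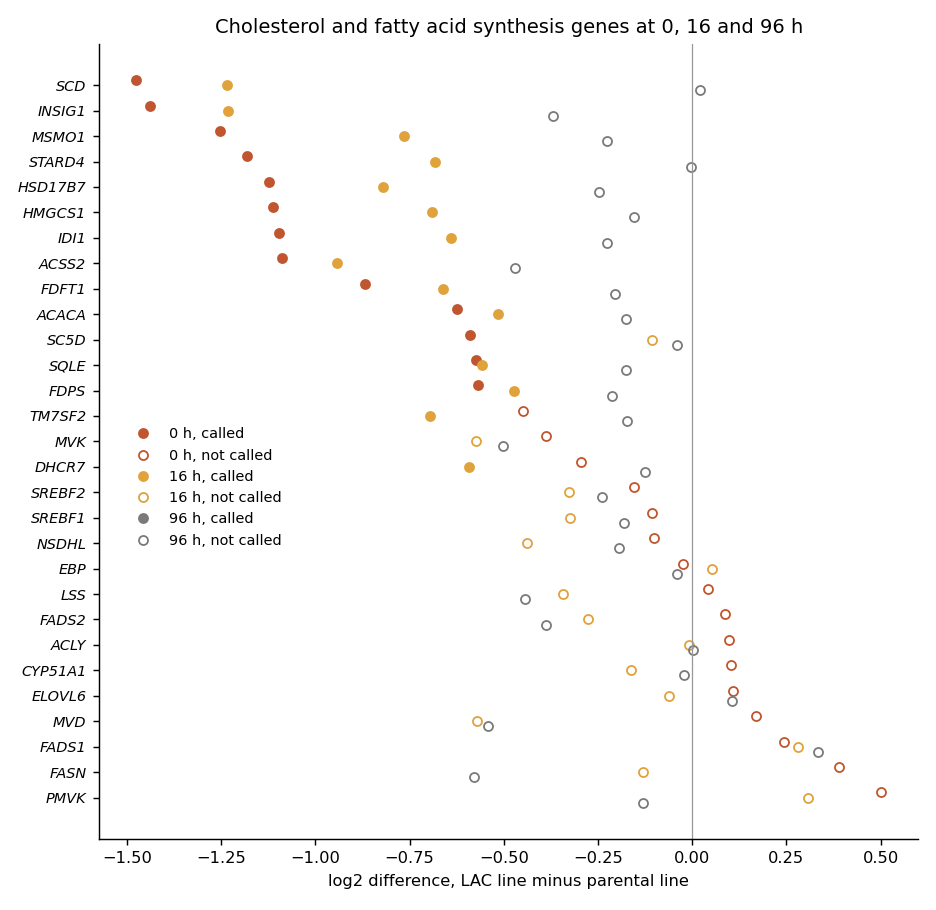
Log2 difference, LAC minus parental, of members of the cholesterol and fatty acid list at 0, 16 and 96 h, with filled points for calls and open points for no call. SCD lies at -1.48 and INSIG1 at -1.44 at 0 h, and both lie nearer to 0 at 96 h.

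Genes of the nuclear envelope moved both ways. Of 28 lamin partners and processing genes, 6 were called higher and 4 lower (median 0.27, and 0.097 with the trend removed), and with library size alone 3 were higher and 7 lower. TMEM201, an inner membrane protein also known as SAMP1, stood at 57.3, 51.3, 66.5 and 55.6 CPM in the 4 parental libraries and at 186, 109, 128 and 126 CPM in the 4 LAC libraries, without overlap, a difference of 1.24 ± 0.19 (edgeR adjusted p 8.16e-06). CTDNEP1, a phosphatase that limits membrane synthesis, rose by 0.79 ± 0.13 (edgeR adjusted p 3.32e-05; 0.50 with the trend removed). PRR14, a tether of heterochromatin to lamin, rose by 0.84 ± 0.21 (edgeR adjusted p 0.0046; 0.40 with the trend removed, and adjusted p 0.066 in the 8 libraries alone), and EMD, emerin, by 0.49 (edgeR adjusted p 0.0092); EMD lost its call when the trend was taken out, at 0.18 (edgeR adjusted p 0.347). The lower members were of the bridge to the cytoskeleton, with SUN1 at -0.39 and the nesprins SYNE1, SYNE2 and SYNE4 at -0.62, -0.51 and -1.51 (edgeR adjusted p 0.0109, 0.0491, 0.0338 and 0.00883). SYNE1 and SYNE2 lost their calls when the trend was taken out, at -0.42 and -0.32 (edgeR adjusted p 0.194 and 0.0846). The lower count was 2 without parental replicate 1 or LAC replicate 1 or 2, and 1 without parental replicate 2 or 4 or LAC replicate 4. SYNE4 was -1.17 without parental replicate 4, -1.25 without LAC replicate 4 (edgeR adjusted p 0.0631 and 0.054) and -1.56 in the 8 libraries alone (edgeR adjusted p 0.0626). At 96 h the median of the list was 0.034.

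Called genes of the nuclear pore and of heterochromatin were higher with TMM scaling. Of 31 pore genes 5 were higher and 0 lower (median 0.17), but with library size alone 4 were higher and 1 lower (median -0.017), and 10 were higher without LAC replicate 1. SEC13, of the outer pore ring, stood at 166, 146, 172 and 161 CPM in the 4 parental libraries and at 261, 256, 220.2 and 251 CPM in the 4 LAC libraries, without overlap, a difference of 0.62 ± 0.10 (edgeR adjusted p 4.35e-05; 0.40 with the trend removed). POM121 and POM121C, near-identical pore membrane proteins whose reads may be shared, rose by 0.76 ± 0.15 and 0.77 ± 0.19 (edgeR adjusted p 0.000381 and 0.00405; 0.50 and 0.51 with the trend removed). NUP62, of the central channel, rose by 0.60 ± 0.14 (edgeR adjusted p 0.00271; 0.33 with the trend removed, and adjusted p 0.0511 in the 8 libraries alone). Of 24 heterochromatin genes 7 were higher and 0 lower (median 0.17), but with library size alone 5 were higher and 2 lower (median -0.016). TRIM28, the corepressor of KRAB zinc finger proteins, stood at 737, 673, 805 and 739 CPM in the 4 parental libraries and at 1776, 1015, 1123 and 1186 CPM in the 4 LAC libraries, a difference of 0.79 ± 0.18 (edgeR adjusted p 0.00178; 0.39 with the trend removed). UHRF1, which maintains DNA methylation, and CBX1, an HP1 protein, rose by 0.63 ± 0.16 and 0.51 ± 0.13 (edgeR adjusted p 0.00523 and 0.00543). After removal of the trend UHRF1 was 0.32, and with library size alone CBX1 was 0.33. The chromatin protein HMGA1 rose by 0.62 ± 0.14 (edgeR adjusted p 0.00176), and its call was lost with the trend removed, at 0.24 (edgeR adjusted p 0.176).

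Actin genes and SRF targets that were called were mostly higher. SRF is a factor switched on by actin assembly, and of its targets and the contractile actin genes 10 of 25 tested members were called higher and 1 lower, with a median log2 difference of 0.29, against 5 higher and 2 lower with library size alone. ACTB, the main cytoplasmic actin, stood at 6141, 5994, 5773 and 5566 CPM in the 4 parental libraries and at 9912, 9734, 9326 and 9426 CPM in the 4 LAC libraries. All 4 LAC libraries lay above all 4 parental ones, and the difference was 0.71 ± 0.13 (edgeR adjusted p 0.000114; 0.39 with the trend removed). ACTG1, the other cytoplasmic actin, rose by 0.73 ± 0.11, the calponin CNN2 by 0.66 ± 0.13 and the focal adhesion protein ZYX by 0.81 ± 0.17 (edgeR adjusted p 2.32e-06, 0.00036 and 0.000641; 0.44, 0.34 and 0.36 with the trend removed). Actin genes have many processed pseudogenes, so their reads are uncertain. At 16 h 4 members were higher and 0 lower, with a median of 0.30, and at 96 h the median was -0.029.

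YAP, a coactivator that responds to cell tension, had called targets in both directions. In its list 6 of 22 tested members were called higher and 1 lower, with a median log2 difference of 0.32, and at 16 h 8 were higher and 1 lower. With library size alone 3 were higher at 0 h (median 0.14), with the trend removed 4 and in the 8 libraries alone 2, and the counts were 2 to 10 higher and 1 lower over the alternatives run. CCN1, a matricellular protein, stood at 190.0, 185, 188 and 145 CPM in the 4 parental libraries and at 299, 282, 312 and 337 CPM in the 4 LAC libraries, without overlap, a difference of 0.80 ± 0.16 (edgeR adjusted p 0.00049). ANKRD1, a nuclear ankyrin protein, went the other way, at 117, 96.1, 85.9 and 96.7 CPM in the 4 parental libraries and at 30.8, 38.1, 31.3 and 40.6 CPM in the 4 LAC libraries, a difference of -1.48 ± 0.17 (edgeR adjusted p 2.04e-08). At 16 h ANKRD1 was higher in LAC, by 0.66 (adjusted p 0.0217) in the edgeR fit. Its mean fell in both lines by 16 h. The parental line went from 98.9 ± 13.0 to 13.3 ± 0.949 CPM (SD, n = 4), and LAC from 35.2 ± 4.93 to 20.9 ± 3.06 CPM. F3, tissue factor, rose by 0.56 ± 0.15 (edgeR adjusted p 0.00783; 0.38 with library size alone, adjusted p 0.0573), and LATS2, a kinase that restrains YAP, by 0.50 ± 0.12 (edgeR adjusted p 0.0021; 0.31 with the trend removed, and adjusted p 0.0562 in the 8 libraries alone). Of 21 immediate early genes 2 were higher and 0 lower (median 0.25, and -0.037 with the trend removed), beside 8.71 and 7.08% over all genes. The higher count was 4 without parental replicate 2 and 5 without LAC replicate 2. JUN, an AP-1 subunit, rose by 1.09 ± 0.26 (edgeR adjusted p 0.00237). FOSL1, its partner, rose by 0.60 ± 0.14 (edgeR adjusted p 0.00255) but 0.27 with the trend removed (adjusted p 0.12 in edgeR).

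Of the feedback genes of MAPK signalling 1 of 16 was called and of WNT signalling 3 of 18, beside 15.8% of all genes tested. Of 16 MAPK feedback genes CCND1, cyclin D1, was the single call, at 0.45 ± 0.14 (edgeR adjusted p 0.0181). It was lost with the trend removed at 0.19, with library size alone at 0.27, without the low-count filter at 0.48 and without parental replicate 4 at 0.39 (edgeR adjusted p 0.128, 0.104, 0.058 and 0.0738). Of 18 tested WNT feedback genes 1 was higher and 2 lower. RNF43, a ligase that clears WNT receptors, was -0.56 ± 0.14 (edgeR adjusted p 0.00375), with 56.5, 56.0, 57.6 and 60.9 CPM in the parental line and 40.8, 40.6, 39.7 and 35.4 in LAC. BAMBI, a decoy receptor, and APCDD1, a WNT inhibitor, were 0.51 ± 0.17 and -1.27 ± 0.44 (edgeR adjusted p 0.031 and 0.0432). BAMBI was lost in 10 of 18 alternatives, among them the trend-removed fit, at 0.29 (edgeR adjusted p 0.189), and leaving out parental replicate 3 or 4 or LAC replicate 1 or 2 (0.46, 0.52, 0.47 and 0.45). APCDD1 was lost in 8 of 18, among them leaving out parental replicate 2, 3 or 4 or LAC replicate 1, 3 or 4 (-1.02, -1.31, -1.24, -1.19, -1.31 and -0.98).

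Genes of the antioxidant and amino acid stress programmes leaned lower. NRF2 drives detoxifying and cystine import genes, and in its list 1 of 22 tested members were called higher and 8 lower, with a median log2 difference of -0.32 (with the trend removed, 0 higher and 12 lower, median -0.53). NQO1, a quinone reductase also driven by the aryl hydrocarbon receptor, stood at 324, 342, 325 and 307 CPM in the 4 parental libraries and at 106, 168, 152 and 165 CPM in the 4 LAC libraries, without overlap, a difference of -1.13 ± 0.13 (edgeR adjusted p 8.09e-09). ABCC3, an exporter of conjugates, was -1.45 ± 0.14, SLC7A11, the cystine importer, -1.01 ± 0.14 and TXNRD1, thioredoxin reductase, -0.55 ± 0.10 (edgeR adjusted p 8.88e-11, 1.08e-06 and 0.0002). FTH1, the ferritin heavy chain, was the higher member, at 0.62 (edgeR adjusted p 0.0186; 0.37 and adjusted p 0.0892 with the trend removed). ATF4 is the factor of the integrated stress response, and in its list 1 of 25 tested members were called higher and 7 lower, with a median log2 difference of -0.16 (with the trend removed, 1 higher and 13 lower, median -0.33). The lower count was 3 without parental replicate 2 and 4 without LAC replicate 1. ASNS, asparagine synthetase, stood at 13.8, 11.6, 11.1 and 9.91 CPM in the 4 parental libraries and at 3.24, 4.36, 4.29 and 3.70 CPM in the 4 LAC libraries, without overlap, a difference of -1.55 ± 0.22 (edgeR adjusted p 2.44e-06). DDIT4, an inhibitor of mTORC1, was -1.12 ± 0.22 and ATF5, a related factor that overlaps NUP62 on the opposite strand, 1.17 ± 0.26 (edgeR adjusted p 0.000358 and 0.00104; ATF5 0.71 with the trend removed). Neither ASNS nor SLC7A11 was called between the lines at 16 h, at 0.17 and 0.26, and the changes from 0 h were 1.72 and 1.28 (edgeR adjusted p 0.00362 and 0.000461). Both were chosen by their 0 h p and the changes share the 0 h libraries, so some of each can come from that choice.

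The aryl hydrocarbon receptor list held 10 tested genes, of which 1 was higher and 3 lower (0 to 3 higher and 1 to 5 lower over the alternatives run). UGT1A6 and NQO1 are described above. ALDH3A1, an aldehyde dehydrogenase, was -0.57 ± 0.15 (edgeR adjusted p 0.00491; -0.92 with the trend removed, and adjusted p 0.0621 in the 8 libraries alone). Its LAC libraries were at 64.1, 45.1, 44.2 and 45.7 CPM and its parental ones at 62.1, 72.3, 66.7 and 92.1, overlapping through LAC replicate 1. CYP1A1, the receptor's classic target, was 0.88 ± 0.30 (edgeR adjusted p 0.0359) and was lost in 9 of 18 alternatives. These include the fits without parental replicate 2 or 3 or LAC replicate 3 or 4 (0.88, 0.69, 0.88 and 0.73) and the trend-removed fit, at 0.64 (edgeR adjusted p 0.131).

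Cytokine genes of the epithelium were lower where called, with 0 higher and 8 lower of 33 tested (median -0.30; 0 to 2 higher and 4 to 11 lower over the alternatives run). IL33, an alarmin kept in the nucleus, stood at 11.0, 14.4, 14.0 and 9.42 CPM in the 4 parental libraries and at 2.91, 3.44, 1.91 and 2.56 CPM in the 4 LAC libraries, without overlap, a difference of -2.13 ± 0.29 (edgeR adjusted p 1.02e-06), and was -1.72 at 16 h and -1.30 at 96 h. IL32 and IL15, both secreted cytokines, were -2.68 ± 0.51 and -1.55 ± 0.33 (edgeR adjusted p 0.000215 and 0.000796). IL1R1, the interleukin 1 receptor, was -1.47 ± 0.31 (edgeR adjusted p 0.000668, and 0.0556 in the 8 libraries alone), and its ligand IL1A was -2.20 (edgeR adjusted p 0.017). The changes of IL32 and IL15 from 0 to 96 h were 2.79 and 1.48 (edgeR adjusted p 0.0133 and 0.0348), which left both without a call at 96 h. Parental means went from 2.19 to 0.579 CPM for IL32 and from 6.75 to 3.23 CPM for IL15. LAC means went from 0.360 to 0.572 and from 2.20 to 3.00 CPM. The changes use again the 0 h libraries by which these genes were chosen, so some of the narrowing can come from that choice.

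Interferon-stimulated genes were called in both directions, with 3 higher and 3 lower of 33 tested (median -0.092), beside 8.71 and 7.08% over all genes. Other fits leaned lower, with 1 higher and 8 lower with library size alone, 2 higher and 6 lower with RLE, 2 higher and 7 lower with DESeq2 and 3 higher and 7 lower with the trend removed. OAS1, a sensor of double-stranded RNA, stood at 15.5, 16.5, 16.7 and 23.9 CPM in the 4 parental libraries and at 0.971, 8.76, 7.47 and 6.64 CPM in the 4 LAC libraries, without overlap, a difference of -1.42 ± 0.23 (edgeR adjusted p 1.97e-05), and DDX60, a helicase of antiviral sensing, was -1.17 ± 0.22 (edgeR adjusted p 0.000194). IFITM3, a membrane protein that blocks viral entry, rose by 0.61 ± 0.12 (edgeR adjusted p 0.000413; 0.27 with the trend removed), and IFIT3 was -1.01 ± 0.31 (edgeR adjusted p 0.0204). IFIT3 was lost without parental replicate 2 (-0.74), without LAC replicate 4 (-0.85), without the low-count filter (-0.96) and in the 8 libraries alone (-1.05). Of 20 tested antigen presentation genes 3 were higher and 2 lower (median 0.00997, and -0.27 with the trend removed, where 8 were lower; 1 to 4 higher and 0 to 8 lower over the alternatives run). CALR, calreticulin of the peptide-loading complex, stood at 883, 745, 853 and 734 CPM in the 4 parental libraries and at 1903, 1292, 1319.7 and 1349 CPM in the 4 LAC libraries, a difference of 0.87 ± 0.15 (edgeR adjusted p 7.67e-05). TAP1, the peptide transporter, was 0.67 ± 0.20, HLA-B -1.33 ± 0.38 and ERAP2, a peptide-trimming enzyme, -0.52 ± 0.16 (edgeR adjusted p 0.0149, 0.0116 and 0.0169). TAP1 was lost without parental replicate 4 (0.57) or LAC replicate 1 (0.47), without libraries under 5000000 counts (0.36) and with the trend removed (0.41). HLA-B, whose reads may be shared among HLA genes, was lost without parental replicate 4 or LAC replicate 2 (-1.01 for each). ERAP2 was lost without parental replicate 2 (-0.39) or LAC replicate 1 (-0.35) and without the low-count filter (-0.47). TAP1 was also lost with library size alone (0.48). In the 8 libraries alone TAP1, HLA-B and ERAP2 were lost too, at 0.65, -1.34 and -0.57 (edgeR adjusted p 0.112, 0.117 and 0.0633).

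Genes of the absorptive enterocyte were called in both directions. Of 18 tested 2 were higher and 5 lower (median -0.78), and 3 were lower without parental replicate 1 or 2 or without LAC replicate 3 or 4. CDH17, the liver-intestine cadherin, stood at 51.3, 62.8, 73.2 and 81.0 CPM in the 4 parental libraries and at 23.3, 28.0, 24.0 and 26.1 CPM in the 4 LAC libraries, without overlap, a difference of -1.38 ± 0.16 (edgeR adjusted p 1.36e-08), and was -0.87 at 16 h and -0.79 at 96 h. KRT20, a keratin of differentiated cells, stood at 71.7, 69.8, 71.0 and 59.7 CPM in the 4 parental libraries and at 21.7, 45.6, 39.6 and 43.8 CPM in the 4 LAC libraries, a difference of -0.82 ± 0.15 (edgeR adjusted p 0.000113). CDX2, an intestinal transcription factor, was 0.52 ± 0.13 at 0 h (edgeR adjusted p 0.00404), 0.24 with the trend removed (edgeR adjusted p 0.0582), and lower in LAC later, at -0.47 (adjusted p 0.0217) and -0.70 (adjusted p 0.000379) in the edgeR fit. Its 0 h call was also lost in the 8 libraries alone, at 0.47 (edgeR adjusted p 0.0557). GPA33, an intestinal surface antigen with few counts, was -2.28 ± 0.82 (edgeR adjusted p 0.0483) and was lost in 11 of 17 alternatives, among them each of the 8 fits that left out 1 library. These ran from -2.90 without LAC replicate 2 to -1.98 without LAC replicate 4. Of 18 tested secretory genes 1 was higher and 2 lower, beside 8.71 and 7.08% over all genes. Over the alternatives run 0 to 2 were higher and 1 to 5 lower. REG4 had 16 counts over the parental libraries and 0 over LAC, at least 8.77-fold lower. AGR2, a disulfide isomerase of mucin folding, was -0.59 ± 0.18 (edgeR adjusted p 0.0191), at 116, 293, 254 and 265 CPM in LAC. The AGR2 call was lost without LAC replicate 1 (-0.35, edgeR adjusted p 0.163) or parental replicate 2 (-0.52, edgeR adjusted p 0.0782). It was also lost in the 8 libraries alone (-0.65, edgeR adjusted p 0.0882). FOXA1, a pioneer factor, was 0.41 ± 0.12 (edgeR adjusted p 0.0173) and was lost in 7 of 18 alternatives, among them the trend-removed fit (0.18) and those without parental replicate 1 or 4 (0.38 and 0.39).

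Junction and adhesion genes changed in both directions. Of 32 tested junction genes 4 were higher and 7 lower (median 0.096, but -0.086 with library size alone and -0.13 with the trend removed). NECTIN4, an adhesion molecule, stood at 24.2, 20.2, 28.7 and 29.0 CPM in the 4 parental libraries and at 17.2, 10.5, 10.3 and 9.28 CPM in the 4 LAC libraries, without overlap, a difference of -1.17 ± 0.19 (edgeR adjusted p 2.34e-05). DSC2, a desmosomal cadherin, and CLDN2, a pore-forming claudin, were -0.75 ± 0.15 and -0.72 ± 0.16 (edgeR adjusted p 0.000606 and 0.00138). PKP3, a desmosomal plaque protein, rose by 0.93 ± 0.21 (edgeR adjusted p 0.00169; 0.37 with the trend removed). EPCAM, an epithelial adhesion molecule, was 0.40 ± 0.11 (edgeR adjusted p 0.0123) and was lost with library size alone at 0.21, without the low-count filter at 0.44 and in the 8 libraries alone at 0.35 (adjusted p 0.141, 0.102 and 0.0825). Of 18 integrin genes 0 were higher and 2 lower, beside 8.71 and 7.08% over all genes. The lower count was 3 with RLE, 5 with library size alone, 4 with DESeq2 and 6 with the trend removed. Those called were ITGA1, a collagen receptor subunit, at -1.16 ± 0.20, and ITGAV, a fibronectin and vitronectin receptor subunit, at -0.56 ± 0.14 (edgeR adjusted p 5.37e-05 and 0.00438). ITGAV was -0.32 with the trend removed and -0.41 without LAC replicate 1 (edgeR adjusted p 0.0522).

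Among mesenchymal genes 1 was higher and 2 lower of 14 tested, beside 8.71 and 7.08% over all genes. Over the alternatives run 0 to 1 were higher and 2 to 5 lower. S100A4, a calcium-binding protein of motile cells, stood at 26.7, 18.3, 28.0 and 26.8 CPM in the 4 parental libraries and at 6.80, 4.25, 5.08 and 5.51 CPM in the 4 LAC libraries, a difference of -2.26 ± 0.25 (edgeR adjusted p 5.32e-09). COL6A1, a collagen chain, was 1.41 ± 0.48 (edgeR adjusted p 0.0392) and was lost in 12 of 18 alternatives. Without parental replicate 1, 2, 3 or 4 it was 1.54, 1.54, 1.20 and 1.46, without LAC replicate 1 or 3 it was 1.34 and 1.20, and with the trend removed 1.05. Of 18 tested cytoplasmic intermediate filament genes 0 were higher and 4 lower (0 higher and 2 to 6 lower over the alternatives run). The hair keratins KRT81 and KRT86, which overlap on opposite strands, were -1.66 ± 0.38 and -1.49 ± 0.38 (edgeR adjusted p 0.00178 and 0.00439; KRT86 0.0506 in the 8 libraries alone). KRT17 was at 0 counts in LAC, with 0, 0.495, 0.538 and 0.242 CPM in the parental line, and its call was lost without parental replicate 2 or LAC replicate 2 (edgeR adjusted p 0.0592 and 0.0589). Of 8 tested caveolar genes CAV2, a caveolin, was -0.74 ± 0.18 and CAVIN1, the caveolar coat protein, 0.81 ± 0.24 (edgeR adjusted p 0.00379 and 0.0172). CAVIN1 was 0.40 with the trend removed and was lost without LAC replicate 1 (0.54, edgeR adjusted p 0.102) or parental replicate 4 (0.75, edgeR adjusted p 0.0595). It was also lost without libraries under 5000000 counts (0.47) and in the 8 libraries alone (0.79), with edgeR adjusted p 0.075 and 0.0615.

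MAP2, a microtubule-associated protein on the neuronal marker list, was expressed in the parental line and lower in LAC. It stood at 45.0, 57.5, 49.3 and 48.1 CPM in the 4 parental libraries and at 7.12, 19.4, 14.8 and 16.0 CPM in the 4 LAC libraries, without overlap, a difference of -1.72 ± 0.19 (edgeR adjusted p 6.95e-09), with -1.08 at 16 h and -0.85 at 96 h. Of the 5 neuronal markers, RBFOX3, SNAP25 and SYT1 had 32, 2 and 37 counts over the LAC libraries and 18, 0 and 49 over the parental ones, and TUBB3, a neuronal tubulin, 490 and 320. MAP2 held 852 and 1539. The summed level of the list ran from 56.8 to 70.2 CPM in the parental line and from 14.9 to 29.4 CPM in LAC. In bulk RNA, fewer cells with a transcript and less of it per cell cannot be told apart.

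Called genes of the cell cycle were mostly higher with TMM scaling. Of 41 DNA replication genes 10 were called higher and 2 lower (median 0.21), against 5 and 4 with library size alone. CHAF1A, a histone chaperone of the fork, rose by 0.78 ± 0.16, TK1, thymidine kinase, by 0.63 ± 0.14, ORC1, of the origin complex, by 0.51 ± 0.11 and MCM7, of the helicase, by 0.53 ± 0.12 (edgeR adjusted p 0.000527, 0.00151, 0.00128 and 0.00198). After removal of the trend they were 0.46, 0.23, 0.32 and 0.27, and ORC1 had an adjusted p of 0.0556 in the 8 libraries alone. Of 38 mitotic genes 7 were higher and 1 lower (median 0.088), but 2 were higher and 4 lower with library size alone (median -0.095), 0 were higher in the 8 libraries alone, and 4 and 3 were higher without parental replicate 3 or 4. BIRC5, survivin, rose by 0.57 ± 0.13 and UBE2C, of the anaphase-promoting complex, by 0.56 ± 0.15 (edgeR adjusted p 0.00232 and 0.00686; 0.37 and 0.37 with the trend removed). CDC20, which activates that complex, and PLK1, a mitotic kinase, were 0.45 ± 0.11 and 0.42 ± 0.11 (edgeR adjusted p 0.00294 and 0.00893) and were lost with the trend removed, at 0.17 and 0.14. PLK1 was also lost without parental replicate 4, at 0.32 (edgeR adjusted p 0.066), with library size alone (0.24) and without the low-count filter (0.45). UBE2C was lost with library size alone, at 0.38 (edgeR adjusted p 0.0505). Of 25 tested p53 targets 1 was higher and 2 lower, beside 8.71 and 7.08% over all genes. Other fits gave 1 higher and 8 lower with library size alone, 1 higher and 5 lower with DESeq2 and 2 higher and 8 lower with the trend removed. CDKN1A, the cyclin-dependent kinase inhibitor p21, stood at 91.5, 69.5, 74.3 and 78.5 CPM in the 4 parental libraries and at 56.7, 31.1, 31.8 and 26.3 CPM in the 4 LAC libraries, without overlap, a difference of -1.15 ± 0.18 (edgeR adjusted p 1e-05). AEN, a nuclease of apoptosis, was 0.67 ± 0.14 and TP53INP1 -1.57 ± 0.47 (edgeR adjusted p 0.000855 and 0.0156). AEN was 0.43 with the trend removed, and TP53INP1 was lost without parental replicate 2 or LAC replicate 4 (-1.32 and -1.34).

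Called genes of protein synthesis and degradation were higher, apart from RBX1. Of 57 cytosolic ribosomal protein genes 20 were higher and 0 lower (median 0.41). The higher count was 9 with the trend removed, 14 with RLE scaling, 6 with library size alone, 7 in the 8 libraries alone, and 12 without parental replicate 2 or 4. RPL8 stood at 639, 526, 617 and 570.3 CPM in the 4 parental libraries and at 1125, 905, 984 and 936 CPM in the 4 LAC libraries, without overlap, a difference of 0.75 ± 0.14 (edgeR adjusted p 0.000219; 0.37 with the trend removed). RPS2, RPL28 and RPS15 rose by 0.58 ± 0.12, 0.66 ± 0.14 and 0.88 ± 0.21 (edgeR adjusted p 0.000381, 0.000667 and 0.00284). After removal of the trend they were 0.24, 0.43 and 0.42, with RPS2 losing its call (edgeR adjusted p 0.0566). RPS15 was 0.57 without LAC replicate 1 and lost its call in the 8 libraries alone, at 0.85 (edgeR adjusted p 0.0701). Reads of ribosomal protein genes may be shared with their many pseudogenes. Of 39 genes of the SCF ligase and the proteasome, the machinery through which the degron acts, 12 were higher and 1 lower (median 0.27), 19 were higher without LAC replicate 1, and 6 were higher and 2 lower with library size alone. The proteasome genes PSMB6, PSMC3, PSMC4 and PSMC5 rose by 0.58 ± 0.12, 0.67 ± 0.16, 0.62 ± 0.14 and 0.67 ± 0.16 (edgeR adjusted p 0.000721, 0.00261, 0.00126 and 0.002). After removal of the trend they were 0.34, 0.39, 0.36 and 0.48. RBX1, the RING subunit of the ligase, was lower, at -0.48 (edgeR adjusted p 0.0333), a call that was lost in the fit without parental replicate 1, among others. At 96 h the medians of the 2 lists were 0.042 and 0.074.

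**Figure D5:**
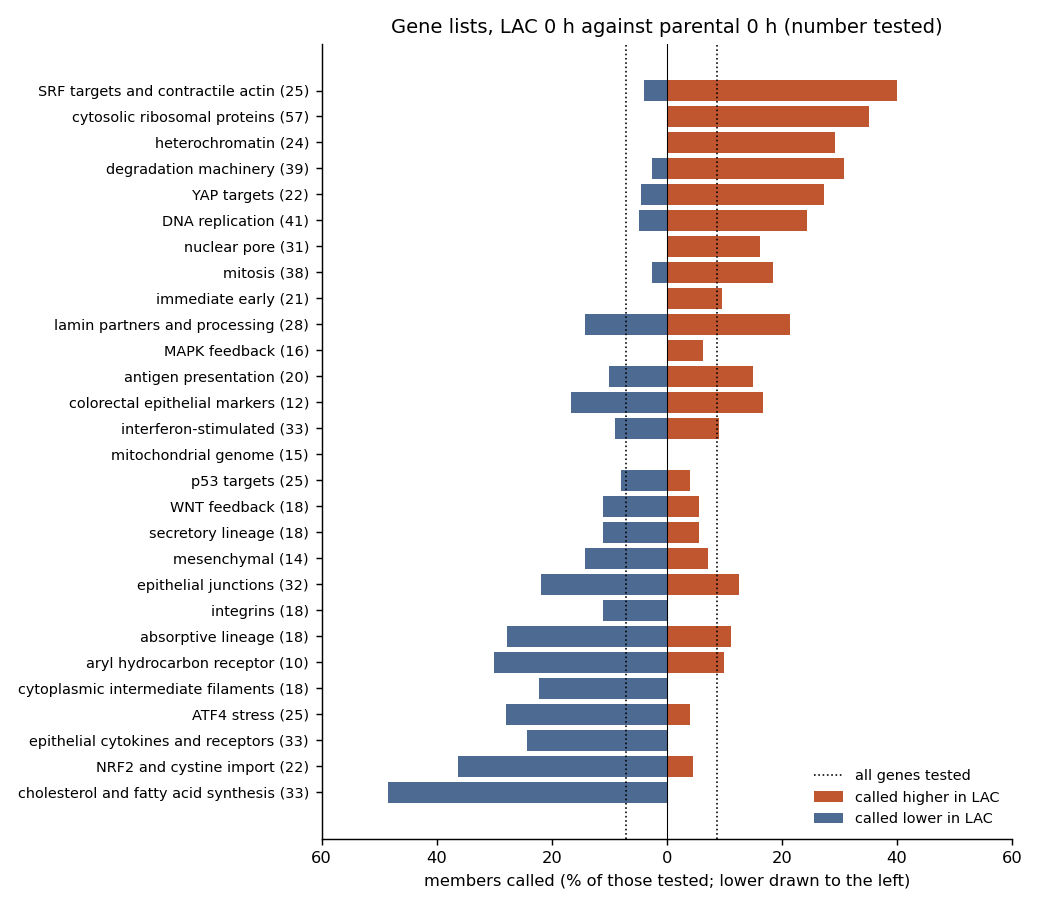
Members of each gene list called higher (bars to the right) or lower (bars to the left) in LAC than in the parental line at 0 h, as a percentage of those tested, with dotted lines at 8.71% and 7.08% for all genes tested. The cholesterol and fatty acid list, with 16 of 33 lower, reaches furthest to the left.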

How the data were processed

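RNA was extracted from culture wells and made into ribosome-depleted, stranded total RNA libraries read as pairs, per the labels' protocols. The deposited file is a gene table of raw, whole-number counts for every library, made with featureCounts 1.6.4 per the file headers. STAR 2.7.10a, SAMtools 1.10, deepTools 3.4.5, DESeq2 1.40.2 and GRCh38 are named in the submitters' processing notes. The strand setting and the handling of reads with several matches are not given in the sources used here.

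All 46 libraries in 12 groups were fitted together with edgeR 4.0.16 (R 4.3.3), using TMM scaling, filterByExpr (21484 genes kept of 62756), the quasi-likelihood test and Benjamini-Hochberg adjustment, with calls at an adjusted p under 0.05. Alternatives were RLE or library-size scaling, no filter, DESeq2 1.42.0, limma 3.58.1 voom, splines of GC content and length removed per library, libraries under 5000000 counts left out, the replicate block, the compared groups alone, and each library left out. Gene positions are those given with the deposited counts. GENCODE 29, which held 92.9% of the genes, gave gene types and GC content, and 99.97% of the genes it held overlapped its position.

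The members and lists were chosen with earlier results of these data known. Named genes were the 3 lamins, the 12 largest rises and falls among protein-coding genes and 3 among other types (called with and without the trend, not overlapping, at least 2 CPM), up to 4 called members of each list with the smallest p, and 5 per direction called at all 3 times and against LB1 and LB2. Other members of the lists and neighbours are named beside them. No p-value was adjusted over a list alone. Some members counted in the lists are not reported here by name.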

Additional observations from a re-analysis of the deposited data

Results flagged for a closer look

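In groups of 4, a library was marked where its gap to the nearest other passed Dixon's critical value, which chance does in about 1 in 20 groups. This held in 23 of the 248 groups of named genes (9.27%). LAC replicate 1, the least deep library of the 8, stood high for LMNB1 (295 CPM), HES7 (42.1 CPM), POM121C (217 CPM), CALR (1900.0 CPM), ALDH3A1 (64.1 CPM), NECTIN4 (17.2 CPM), ATF5 (102 CPM), BIRC5 (385 CPM), UBE2C (115 CPM). It stood low for F3 (126 CPM), ORC1 (88.4 CPM). LAC replicate 2 stood high for CAV2 (23.1 CPM), and LAC replicate 3 low for EPCAM (448 CPM). Parental replicate 4 stood high for QPRT (14.3 CPM), RPS20P31 (4.59 CPM), OAS1 (23.9 CPM) and low for CCN1 (145 CPM), KRT20 (59.7 CPM). Parental replicate 2 stood high for IFIT3 (4.37 CPM), CAV2 (31.9 CPM) and low for S100A4 (18.3 CPM). Parental replicate 1 stood high for GALR2 (0.609 CPM), and parental replicate 3 low for COL6A1 (0.359 CPM).

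The difference between the lines changed with time for some of the 126 named genes tested, in edgeR interaction terms that passed with and without the GC and length trend. A value in brackets is the change with the trend removed, given where it differed by more than 1.5 times. From 0 to 16 h the log2 difference rose for ANKRD1 2.13, SLC7A11 1.28, ASNS 1.72 (edgeR adjusted p 4.78e-07 to 0.00362) and fell for BAMBI -1.04, CDX2 -0.98 (0.00511 to 0.042). From 0 to 96 h it rose for QPRT 2.31, CYP4F3 2.03, IGFBP7 2.71, ANKRD1 1.14, OAS1 1.09, DDX60 1.15, IL32 2.79, IL15 1.48, NQO1 0.72, S100A4 1.16, ITGAV 0.69 (0.38), KRT81 1.65, CDKN1A 0.84 (1.32), ABCC3 1.12, SLC7A11 1.23, ASNS 1.57, DDIT4 1.15 (1.78), INSIG1 1.07, SCD 1.50, HSD17B7 0.88, MAP2 0.87 (edgeR adjusted p 3.65e-05 to 0.0466). It fell for LMNB2 -1.09 (-0.48), GALR2 -3.93, NAT8L -1.76 (-1.01), P2RY11 -1.79 (-1.05), RPL22P1 -3.31, TMEM201 -1.20 (-0.58), CTDNEP1 -0.90 (-0.54), SEC13 -0.66 (-0.37), POM121 -0.88 (-0.48), POM121C -1.06 (-0.67), TRIM28 -0.93 (-0.36), UHRF1 -0.79 (-0.38), CCN1 -1.13, LATS2 -0.74 (-0.49), JUN -1.34, CALR -0.99 (-0.64), CYP1A1 -1.79, CDX2 -1.22, CAVIN1 -1.40 (-0.85), CHAF1A -0.94 (-0.53) (7.48e-05 to 0.0255). The 0 h libraries are shared by these changes and the 0 h differences, by which the genes other than the lamins were chosen. Both lines had auxin at 16 and 96 h, and what moved these differences was not tested.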

How the results depend on the processing

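The 0 h count of 3393 calls fell to 1317 when the 8 libraries were fitted alone, and ran from 2462 (without parental replicate 4) to 3778 (without LAC replicate 2) when 1 library was left out. LMNA was -0.79 with DESeq2 and -0.79 in the 8 libraries alone (adjusted p 0.0801 and 0.113), and ran from -1.17 to -0.56 when 1 library was left out. The count against LB1 and LB2 was 1182 in those groups alone, and 3413 to 5459 with 1 library left out. At 16 h 722 calls became 2642 with limma voom, 1477 with the trend removed, 1408 without libraries under 5000000 counts, 1596 with the replicate block and the trend removed, and 2342 in those groups alone (440 to 608 with 1 library left out). At 96 h 292 calls became 1118, 574, 781, 634 and 708 under the same settings (172 to 285). The 115 genes called at all 3 times became 333 with limma voom, 238 with the trend removed, 228 without libraries under 5000000 counts and 259 with the replicate block and the trend removed (92 to 156). The cause of these shifts was not tested. Same-numbered libraries correlated at 0.331, 0.649, 0.0324 and -0.0274 in their deviations, so the numbers were not taken to pair them. With the replicate block 3461 genes were called at 0 h, 118 at all 3 times, and LMNA was -0.81 (adjusted p 0.0184). Of the 125 named genes other than LMNA, 84 kept their call under every alternative that tested them, and none reversed. Among the 84, LINC01224, MBTPS1-DT, REG4, RPL22P1 and UGT1A6 were tested in 17 of the 18 alternatives. The LAC library of 3318819 counts limits genes near 1 CPM.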
